A study of Mus musculus with 8 samples.

Results

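The genes described here are 38 interferon-stimulated effector genes, the antiviral and antimicrobial products that cells make after interferon signalling. They were chosen by name, as well-known members of that programme, and not by a threshold on these values. The choice was made with earlier results of these data known, so the counts below are descriptions. Symbols were matched through the RefSeq transcript of each probe, and the brightest probe stood for a gene. Of the 38 genes, Herc6, an ISG15 ligase, had no probe that could be matched. Of the 37 with a probe, Mx1 and Gbp4 were not well above background on any of the 8 arrays. The other 35 were tested, among 13958 genes in all.

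RNA came from cultured fibroblasts of mouse embryos (MEFs), a type of connective tissue cell, taken from Atm+/+ or Atm-/- littermates. Atm encodes the kinase that signals DNA double-strand breaks. Cells of each genotype were untreated (0 h) or collected 4, 8 or 24 h after treatment with neocarzinostatin (NCS), an agent that breaks both DNA strands as radiation does, and all cultures grew in medium with 15% fetal calf serum. Each genotype and time point had 1 array, so a group has no replicate, and the number of embryos or lines behind the 8 arrays is not given in the labels. The sources used here do not give the age of the embryos or the Atm allele.

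Interferons are secreted proteins that a cell makes when it detects foreign or misplaced nucleic acid. They bind receptors on the same or neighbouring cells, and the receptor-bound JAK kinases then activate STAT factors, which join IRF9 on a promoter sequence called the interferon-stimulated response element (ISRE). Most of the genes below are read from such promoters, and several, among them Oas1a, Eif2ak2 and the Ifit genes, encode proteins that sense viral RNA or stop its translation. Fibroblasts keep a low level of this programme without infection.

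Promoter sequence from RefSeq (GRCm38.p6) was at hand for 26 of the 38 genes, covering 250 bases before to 50 after each annotated start. The core of the ISRE, spelled GAAANNGAAA and searched on both strands, was present for 13 of the 26, against 3.99% of 27025 genes with a promoter entry. The core bound by STAT dimers, TTCNNNGAA, was present for 7 of the 26 (26.9%), against 9.55% of all genes. The stretches below are shown because they hold the ISRE core of genes whose values are described next, with the letters of the core in capitals. On one strand the core reads as runs of GAAA and on the other as runs of TTTC, and each stretch is written 5′ to 3′ on the strand of its gene. Ifit1 and Ifit3 each hold a pair of separate copies, and in Isg15, Gbp3, Bst2 and Oas1a overlapping copies form longer runs.
Isg15, chr4:156200863-156200908, minus strand: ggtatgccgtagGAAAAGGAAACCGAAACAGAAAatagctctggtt
Ifit1, chr19:34640773-34640825, plus strand: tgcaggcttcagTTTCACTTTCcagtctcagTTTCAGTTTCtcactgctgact
Ifit3, chr19:34583361-34583428, plus strand: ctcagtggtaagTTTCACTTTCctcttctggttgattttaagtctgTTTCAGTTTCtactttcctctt
Oas1a, chr5:120907518-120907557, minus strand: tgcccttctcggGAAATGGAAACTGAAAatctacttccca
Rsad2, chr12:26456551-26456584, minus strand: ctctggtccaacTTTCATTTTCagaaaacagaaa
Gbp3, chr3:142559987-142560026, plus strand: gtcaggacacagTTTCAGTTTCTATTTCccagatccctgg
Igtp, chr11:58199510-58199543, plus strand: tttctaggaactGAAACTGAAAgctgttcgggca
Bst2, chr8:71537575-71537614, minus strand: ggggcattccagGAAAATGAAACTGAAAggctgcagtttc

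The ISRE core was also found in the windows of Eif2ak2, Gbp2, Irgm1, Oas3 and Trim21. It was not spelled in the windows of Cmpk2, Herc6, Ifi35, Ifi44, Ifit2, Lgals3bp, Oasl1, Oasl2, Parp12, Samhd1, Trim25, Uba7 and Xaf1. These are matches of letters and not measured binding sites. The median genotype difference (Atm-/- minus Atm+/+, log2) was -1.03 in the 13 tested genes with the core and -0.99 in the 12 tested genes without it. Dhx58, Gbp4, Ifi204, Iigp1, Mx1, Mx2, Oas2, Parp14, Parp9, Rtp4, Tor3a and Usp18 had no promoter entry.

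The levels below are log2 of the processed spot signal minus the 75th percentile of the same array, so 0 is the signal of a fairly bright probe and a step of 1 is a doubling. Levels of different probes are not comparable with each other. The share of spots well above background ran from 57.3% to 61.4% over the 8 arrays. Spots marked as outliers numbered 44 to 203 on 7 arrays and 1545 on the Atm+/+ 24 h array, and a marked value was left out. This removed the Atm+/+ 24 h value of Gbp2, Irgm1, Parp9 and Trim21, the Atm+/+ 8 h value of Irgm1 and the Atm-/- 24 h value of Parp9. Both genotypes were on slides of their own and no slide held both, so genotype and slide cannot be told apart. Time points took the same array positions on both slides.

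The library labels were checked against Atm itself. Its level was -2.07, -2.18, -1.95 and -2.43 in Atm+/+ cells at 0, 4, 8 and 24 h, and -3.19, -3.57, -3.67 and -3.15 in Atm-/- cells. All 4 Atm-/- arrays were below all 4 Atm+/+ arrays, with a fitted difference of -1.24 ± 0.18 (SE) and a limma adjusted p of 0.014. The sources used here do not say whether the probe lies in the deleted part of the gene. The Y-linked genes Ddx3y, Eif2s3y, Uty and Kdm5d were well above background on the 4 Atm+/+ arrays only, so the sex of the embryos also goes with genotype and cannot be told apart from it. All 12 fibroblast markers, among them Col1a1, Vim and Pdgfra, were well above background on all 8 arrays.

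Atm-/- cells had lower levels of nearly the whole effector set, untreated as well as after NCS. Of 35 genes tested across both genotypes with time point as a term, 29 were lower in Atm-/- cells at an adjusted p under 0.05 (limma, Benjamini-Hochberg over all probes kept), where 7.45% of 13952 genes were lower. None was higher at that threshold, where 7.55% of all genes were. At an unadjusted p under 0.05 in limma none was higher either, where 16% of all genes were. The median difference was -1.19 in the effector genes and 0.01 over all genes, and 34 of the 35 had a value below 0. Because RNA came from whole cultures, fewer cells of one type and less RNA per cell cannot be told apart. The p-values are set only against how much the genotype difference varies between time points, which may be technical, and not against replicate cultures.

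The 6 genes that did not pass were Rsad2 at -1.56, Iigp1 at -1.34, Oas3 at -1.03, Oasl1 at -1.02, Ifit2 at -0.34 and Samhd1 at 0.15. All of them but Samhd1 were lower at an unadjusted p under 0.05 in limma, where 15.8% of all genes were. Among 31 genes with a value on every array, 23 had all 4 Atm-/- arrays below all 4 Atm+/+ arrays, where 8.27% of all such genes did. Without Oas1a, which was kept for its Atm+/+ signal alone, it was 22 of 30. The 8 whose genotypes overlapped were Ifit1, Ifit2, Ifit3, Iigp1, Oasl1, Rsad2, Samhd1 and Xaf1. Leaving out the 0 h, the 4 h or the 8 h arrays lowered the count of 29 to 18, 19 or 20.

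**Figure D1:**
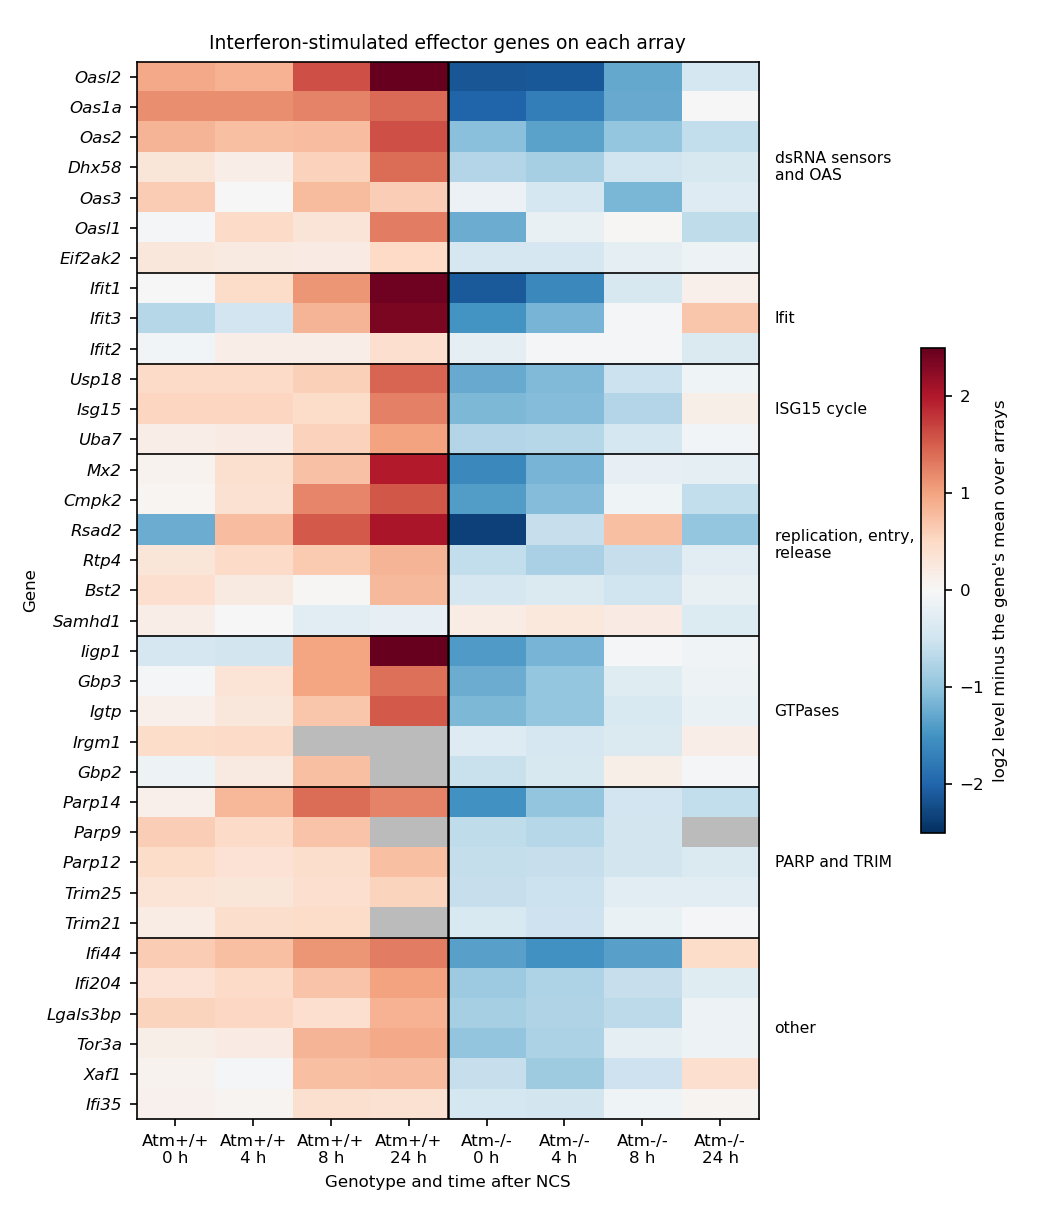
Level of each of the 35 tested genes (rows, grouped by role) on each of the 8 arrays (columns), as log2 level minus the gene's mean over the arrays shown. Grey marks values left out as outliers. The Atm-/- columns are mostly blue and the Atm+/+ columns mostly red, and colours shift toward red from 0 h to 24 h in both genotypes, with Samhd1 and Oas3 in both and Ifit2 in Atm-/- cells as exceptions.

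**Figure D2:**
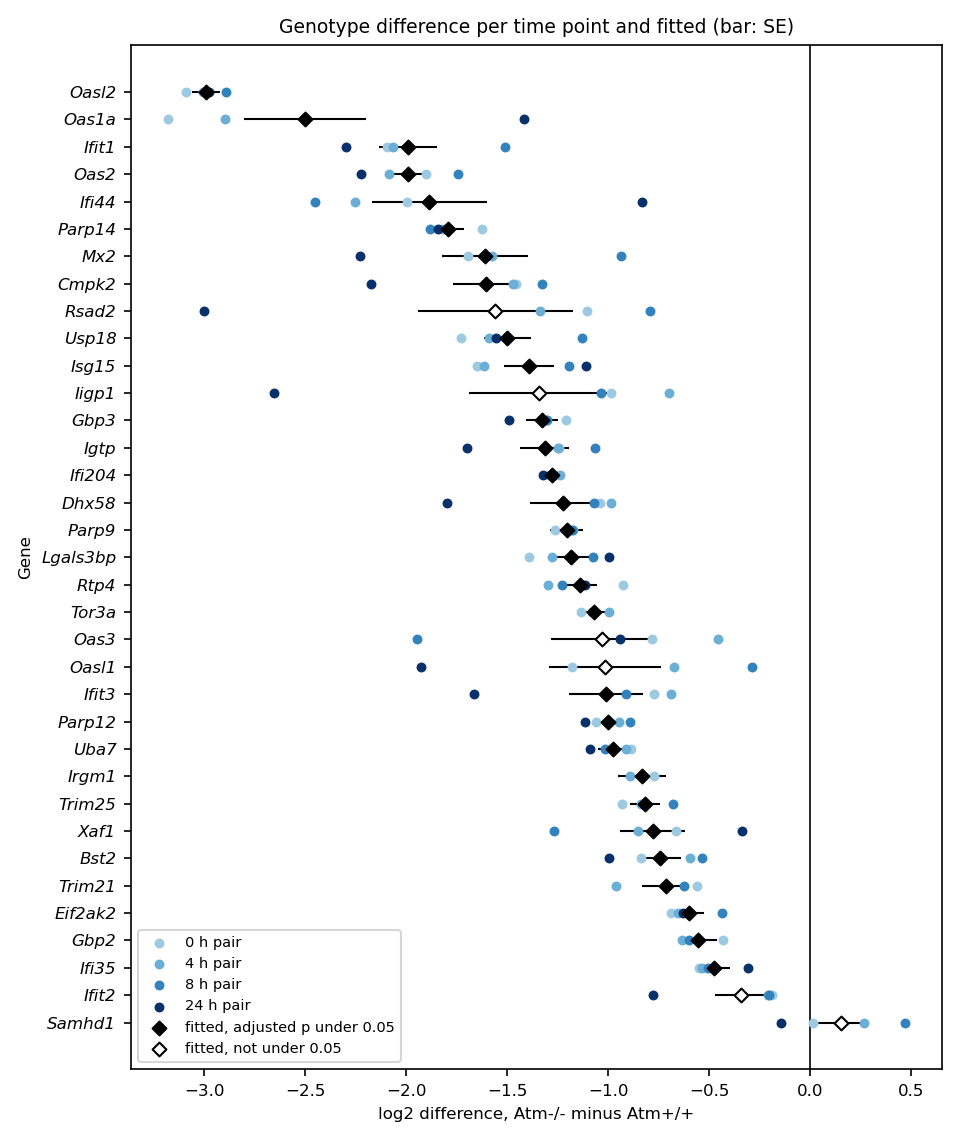
Difference between genotypes for each tested gene (log2, Atm-/- minus Atm+/+). Circles are the 4 time points, 1 array against 1, and diamonds are the fitted values with the SE as a bar. The 29 filled diamonds passed the test and all lie left of 0, and the darkest circles (24 h) of Rsad2, Iigp1 and Oasl1 lie farthest left of their row.

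The 2′-5′ oligoadenylate synthetase (OAS) family makes a small messenger that activates RNase L, which degrades RNA. Oasl2, a family member that binds double-stranded RNA, had the largest difference of all 35. Its level was -0.89, -0.96, -0.23 and 0.71 in Atm+/+ cells at 0, 4, 8 and 24 h, and -3.97, -3.97, -3.13 and -2.27 in Atm-/- cells. The lowest Atm+/+ array was above the highest Atm-/- array, and the difference stayed between -3.09 and -2.89 at the 4 time points. The fitted difference was -2.99 ± 0.07 (SE), 7.95-fold, with an adjusted p of 0.000338.

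Oas1a was well above background on all 4 Atm+/+ arrays and on none of the 4 Atm-/- arrays. Its Atm+/+ level ran from -5.0 to -4.76. Taking the lowest signal that counted as well above background in place of the dim readings, Oas1a was at least 2.24-fold higher in Atm+/+ cells (adjusted p of 0.0091 on the measured values, which include the dim ones). It was kept for its Atm+/+ signal alone and so had to differ. Without it, 28 of 34 effector genes were lower in Atm-/- cells, with a median of -1.16. Oas2 was at -2.01, -2.12, -2.09 and -1.26 in Atm+/+ cells and at -3.91, -4.21, -3.83 and -3.48 in Atm-/- cells. The groups did not overlap, and the difference was -1.99 ± 0.10 with an adjusted p of 0.0019.

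Oas3 and Oasl1, which lie beside Oas2 and Oasl2 on the chromosome, had dimmer probes. Oas3 was not well above background on 2 Atm-/- arrays and Oasl1 on 1, and neither passed, at adjusted p of 0.0564 and 0.0724. Dhx58, which encodes the RNA helicase LGP2, differed by -1.23 ± 0.16 (adjusted p of 0.0111). Eif2ak2, the kinase PKR that halts translation on double-stranded RNA, differed by -0.60 ± 0.08 (adjusted p of 0.0104). Of the 7 genes in this role, 5 passed.

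Ifit proteins bind viral RNA that lacks the cap modifications of host messages. Ifit1 was at -1.33, -0.86, -0.21 and 1.12 in Atm+/+ cells at 0, 4, 8 and 24 h, and at -3.42, -2.93, -1.72 and -1.18 in Atm-/- cells. At each time point the Atm-/- array was lower, but the Atm-/- 24 h level reached the range of the Atm+/+ arrays. The fitted difference was -1.99 ± 0.14, 3.98-fold, with an adjusted p of 0.0031.

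Ifit3, the partner of Ifit1, was at -4.15, -3.92, -2.58 and -1.08 in Atm+/+ cells and at -4.93, -4.61, -3.49 and -2.75 in Atm-/- cells. Its time points spread more than its genotypes, and the genotype difference was -1.01 ± 0.18 with an adjusted p of 0.0259. Ifit2, which lies next to Ifit3, was at 1.81, 2.04, 2.04 and 2.29 in Atm+/+ cells and at 1.63, 1.83, 1.84 and 1.51 in Atm-/- cells. Those ranges overlapped, and its difference of -0.34 ± 0.13 had an adjusted p of 0.14. Ifit3 has near copies among its neighbours on the chromosome, and its probe may take up signal from them.

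ISG15 is a small protein that is joined to other proteins, by a pathway that starts with UBA7, and USP18 takes it off again and also dampens the interferon receptor. Isg15 was at -1.60, -1.60, -1.68 and -0.88 in Atm+/+ cells at 0, 4, 8 and 24 h, and at -3.26, -3.22, -2.88 and -1.99 in Atm-/- cells. The groups did not overlap, and the difference of -1.39 ± 0.12 had an adjusted p of 0.0046. Usp18 was at 0.73, 0.73, 0.84 and 1.70 against -1.0, -0.86, -0.29 and 0.15, without overlap. Its difference was -1.50 ± 0.12 (adjusted p of 0.0035), and that of Uba7 was -0.98 ± 0.07 (adjusted p of 0.0032). The activating enzyme, the modifier and the remover were therefore all lower in Atm-/- cells.

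Among genes that act on virus replication, entry and release, Rsad2 encodes viperin, an enzyme that makes a chain-terminating nucleotide, and its neighbour Cmpk2 supplies the substrate. Rsad2 was at -3.30, -1.29, -0.52 and -0.02 in Atm+/+ cells at 0, 4, 8 and 24 h, and at -4.40, -2.63, -1.31 and -3.02 in Atm-/- cells. It was lower in Atm-/- cells at each time point, by 0.79 to 3.0, and this spread left its adjusted p at 0.0566. Cmpk2 was at -1.02, -0.69, 0.14 and 0.49 against -2.47, -2.16, -1.18 and -1.68, without overlap, and its difference of -1.61 ± 0.16 passed at 0.0058.

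Mx2, named for a family of GTPases that trap viral components, differed by -1.61 ± 0.21 (adjusted p of 0.0113). Its probe was matched to a RefSeq transcript recorded as noncoding. Bst2, which encodes tetherin and holds budding virus at the cell surface, differed by -0.74 ± 0.10 (adjusted p of 0.0131). Rtp4, a receptor transporter protein, differed by -1.14 ± 0.09 (adjusted p of 0.0035). Samhd1, a phosphohydrolase that depletes the nucleotides used for reverse transcription, was the one gene with a fitted value above 0. Its level was 3.64, 3.48, 3.20 and 3.28 in Atm+/+ cells and 3.66, 3.74, 3.67 and 3.14 in Atm-/- cells. The arrays overlapped, the difference was 0.15 ± 0.12 with an adjusted p of 0.434, and a second Samhd1 probe gave 0.18 ± 0.10.

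The interferon-inducible GTPases attack vacuoles that hold intracellular parasites and bacteria. Gbp3, a guanylate-binding protein, was at 0.14, 0.52, 1.18 and 1.55 in Atm+/+ cells at 0, 4, 8 and 24 h, and at -1.06, -0.79, -0.13 and 0.06 in Atm-/- cells. The highest Atm-/- level lay just under the lowest Atm+/+ level, and the difference was -1.33 ± 0.08 with an adjusted p of 0.0023. Igtp differed by -1.31 ± 0.12 (adjusted p of 0.0048), Irgm1 by -0.83 ± 0.12 (0.0406, from 6 arrays) and Gbp2 by -0.55 ± 0.09 (0.032, from 7 arrays).

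Iigp1, of the same family, did not pass with its brightest probe, at -1.34 ± 0.34 and an adjusted p of 0.0625. Its other probe, whose Atm+/+ 24 h value was marked and left out, passed at -1.04 ± 0.09 (adjusted p of 0.00832). In that probe the difference rests on the other time points. The marked value was on the same array that set the brightest probe's 24 h difference of -2.66.

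PARP9, PARP12 and PARP14 are ADP-ribosyltransferases of the interferon response, and TRIM21 and TRIM25 are ubiquitin ligases that act on antibody-coated virus and on RNA sensing. Parp14 was at -0.78, -0.06, 0.50 and 0.33 in Atm+/+ cells at 0, 4, 8 and 24 h, and at -2.40, -1.88, -1.38 and -1.51 in Atm-/- cells. The groups did not overlap, and the difference of -1.79 ± 0.08 had an adjusted p of 0.0014. Parp9, which shares a chromosomal neighbourhood with Parp14, differed by -1.21 ± 0.08, Parp12 by -1.0 ± 0.07, Trim25 by -0.82 ± 0.08 and Trim21 by -0.72 ± 0.12. All 5 passed, and a second Trim21 probe gave -0.98 ± 0.10.

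The remaining genes are markers of the response whose products are less well defined. Ifi44 was at -0.21, -0.09, 0.26 and 0.45 in Atm+/+ cells at 0, 4, 8 and 24 h, and at -2.21, -2.35, -2.20 and -0.39 in Atm-/- cells. The Atm-/- 24 h array stood apart from the other 3 Atm-/- arrays but stayed below every Atm+/+ array, and the difference was -1.89 ± 0.28 with an adjusted p of 0.0162. Ifi204, a DNA-binding protein of the nucleus and cytosol, differed by -1.28 ± 0.06, with single time points between -1.32 and -1.24. Lgals3bp differed by -1.19 ± 0.09, Tor3a by -1.07 ± 0.07, Xaf1, which promotes apoptosis, by -0.78 ± 0.16 and Ifi35 by -0.48 ± 0.08, and all 6 genes passed.

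The genotype difference was present before NCS was added. At 0 h, 1 array against 1, 20 of 35 effector genes were lower in Atm-/- cells by more than 2-fold, where 2.9% of all genes were. Without Oas1a it was 19 of 34. The ratio at 0 h was 8.51-fold for Oasl2, 4.28-fold for Ifit1, 4.00-fold for Ifi44 and 3.74-fold for Oas2, with no replicate behind it. The median difference over the effector genes was -1.10 at 0 h, -1.0 at 4 h, -1.07 at 8 h and -1.32 at 24 h. Over all genes the median was between -0.02 and 0.02 at each time point.

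The question of the time course is how these genes moved after DNA damage. Levels at 24 h were above those at 0 h for most effector genes, with a median difference of 0.80 (log2, fitted over both genotypes) against -0.06 over all genes. Of 34 genes with a fit, 10 rose at an adjusted p under 0.05, where 1.3% of 13862 genes did. At an unadjusted p under 0.05, 25 of 34 were higher, where 11.4% of all genes were. Each of these comparisons uses the same 0 h arrays as the earlier time points, so they are given side by side and not set against each other.

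The genes that rose were Ifit3 by 2.63 ± 0.26 (SE), Ifit1 by 2.34 ± 0.20, Oasl2 by 1.65 ± 0.10, Gbp3 by 1.27 ± 0.11, Igtp by 1.19 ± 0.17, Usp18 by 1.06 ± 0.17, Parp14 by 1.00 ± 0.11, Tor3a by 0.84 ± 0.09, Uba7 by 0.75 ± 0.10 and Ifi204 by 0.63 ± 0.09. Their adjusted p ran from 0.035 for Oasl2 to 0.0498 for Usp18, close to the threshold. These calls did not survive the loss of arrays. Without the 4 h or the 8 h arrays, or without any 1 of the arrays, no effector gene passed, except Ifit3 when the Atm-/- 24 h array was left out, while 18 to 25 stayed at an unadjusted p under 0.05. With marked spots removed before scaling, which raised the median of all probes by 0.19, 2 passed (Ifit1 and Oasl2), and with no filter on dim probes none did, with 23 at an unadjusted p under 0.05.

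Larger differences that did not pass were those of Rsad2 at 2.33 ± 0.54 (adjusted p of 0.0848) and Mx2 at 1.63 ± 0.30 (0.06). Iigp1 at its brightest probe did not pass either, at 2.16 ± 0.49 (0.0823). The other Iigp1 probe gave a smaller value of 1.19, which rests on the Atm-/- 24 h array because its Atm+/+ 24 h value was marked. The values of Ifi44 (1.24), Cmpk2 (1.15) and Isg15 (0.99) also missed the threshold. Oas1a gives no usable 24 h value over both genotypes, since its Atm-/- readings were not well above background, and 24 of the other 33 genes had an unadjusted p under 0.05. Samhd1 had the lowest value, -0.44 ± 0.17 (adjusted p of 0.188), and Oas3 was at -0.09 ± 0.36. Parp9 had no fit, because both of its 24 h values were marked as outliers.

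The median difference was smaller at the earlier time points (0.34 at 8 h), but this did not hold for every gene. The fitted step from 8 h to 24 h was below 0 for 6 of 34 genes, which were Cmpk2, Gbp2, Ifit2, Parp14, Rsad2 and Samhd1. Rsad2 was at 2.94 at 8 h against 0 h. At 4 h against 0 h none of 35 genes passed in limma, where 0.129% of all genes rose, and 3 were higher at an unadjusted p under 0.05 (2.23% of all genes). These 3 were Rsad2 at 1.89, Parp14 at 0.62 and Gbp3 at 0.32, and the median over the effector genes was 0.04. At 8 h against 0 h, 1 gene passed, Parp14 at 1.15 with an adjusted p of 0.0451, where 0.315% of all genes rose, and 15 were higher at an unadjusted p under 0.05 (5.79% of all genes). Parp14 lost its call with normexp background correction, with marked spots removed first, and with no filter.

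From 8 h to 24 h no effector gene passed in limma, where 0.00722% of all genes rose, and 13 of 34 were higher at an unadjusted p under 0.05 (8.78% of all genes). Oasl2 was higher by 0.90 in this step, Isg15 by 0.84 and Ifit1 by 0.93. The hour of the highest level was read among genes with a value on every array of a genotype. In Atm+/+ cells 27 of 31 had the highest of the 4 levels at 24 h, where 29.2% of all genes did. In Atm-/- cells it was 23 of 34, where 32.2% of all genes did. Oas1a is among the 23, with Atm-/- readings that were not well above background. Another 9 had their highest level at 8 h in Atm-/- cells, and the share of all genes with it there was not counted. The 11 that did not peak at 24 h were Cmpk2, Gbp2, Ifit2, Iigp1, Mx2, Oas3, Oasl1, Parp14, Rsad2, Samhd1 and Trim25. The Atm-/- levels of Trim25 at 8 h and 24 h were close, at 1.967 and 1.962.

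**Figure D3:**
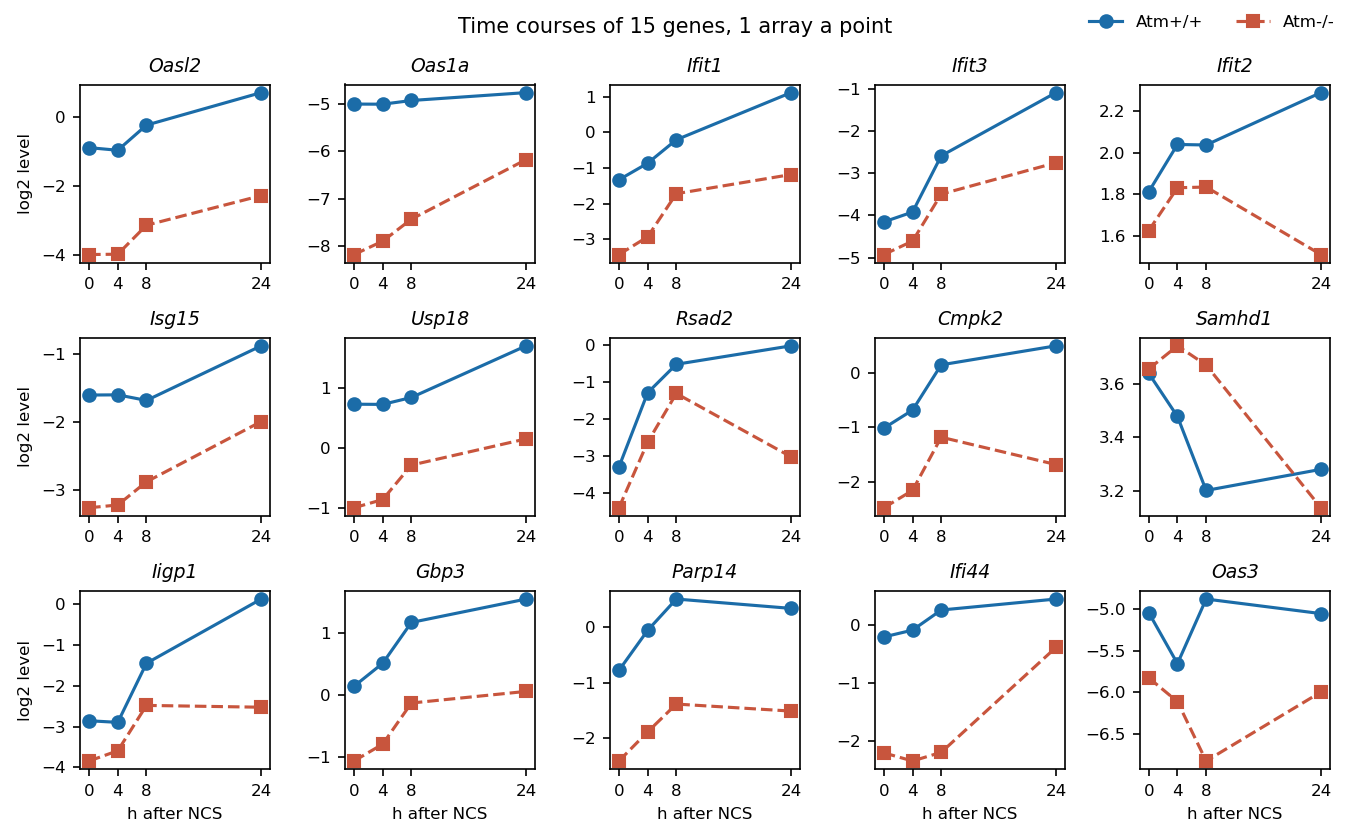
Log2 level of 15 genes against time after NCS (h), 1 array a point, with Atm+/+ as circles and Atm-/- as squares and each panel on a scale of its own. Oasl2, Ifit1 and Gbp3 climb in both genotypes with the Atm-/- line underneath, Rsad2 in Atm-/- cells drops after 8 h, and the Oas1a values of Atm-/- cells are not well above background.

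Both genotypes took part in the late change. Within Atm+/+ cells, 24 h against 0 h with 1 array a side, 12 of 31 genes were higher by more than 2-fold, where 2.66% of all genes were. Within Atm-/- cells it was 12 of 34, where 3.05% of all genes were, or 11 of 33 without Oas1a. With marked spots removed before scaling the count was 20 in Atm+/+ and 12 in Atm-/- cells, and with normexp it was 11 and 8. The share of all genes was not counted under these settings. Removing marked spots first moved the median of all probes by 0.19 in the 24 h fit over both genotypes. The median difference was 0.75 in Atm+/+ and 0.68 in Atm-/- cells. Gbp3, Ifit1, Ifit3, Iigp1, Mx2, Oasl2 and Rsad2 were past 2-fold in both.

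At 24 h the Atm-/- level was still under the untreated Atm+/+ level for 28 of 34 genes, with a median of -0.40, where 54.7% of all genes were below 0 with a median of -0.05. The exceptions were Gbp2, Ifit1, Ifit3, Iigp1, Rsad2 and Xaf1, of which Ifit3 was highest at 1.41 above it. Oas1a is among the 28, with an Atm-/- reading that was not well above background. Oasl2, which rose in the fit over both genotypes, was 3.01-fold higher at 24 h in Atm+/+ and 3.26-fold higher in Atm-/- cells.

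**Figure D4:**
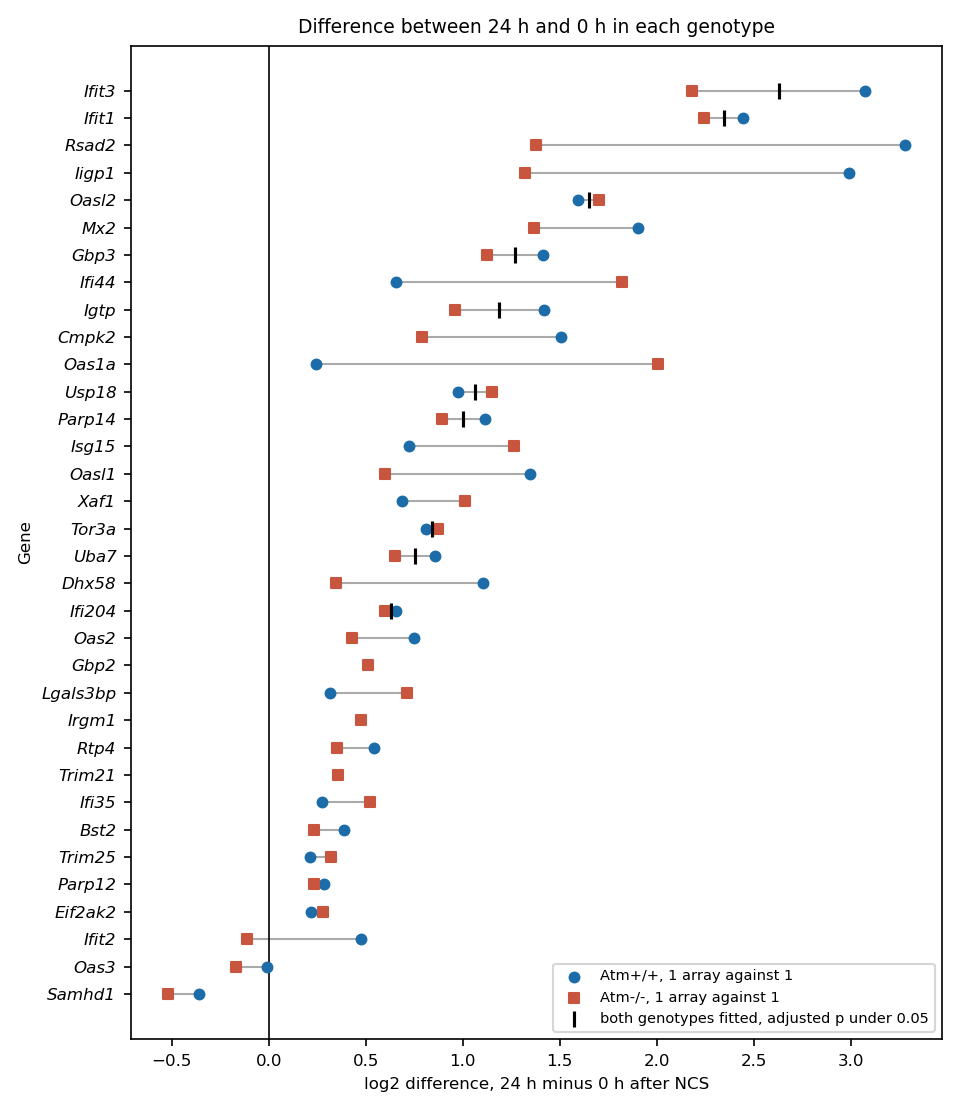
Difference between 24 h and 0 h after NCS (log2) for 34 genes, 1 array against 1, with Atm+/+ as circles and Atm-/- as squares joined by a line, and black ticks at the fitted value of the 10 genes that passed. Gbp2, Irgm1 and Trim21 have no Atm+/+ value. The circle lies far right of the square for Rsad2 and Iigp1 and far left of it for Ifi44 and Oas1a, whose Atm-/- readings are not well above background.

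Whether the 24 h difference depended on Atm was tested with a genotype-by-24 h term, which leaves 2 residual degrees of freedom. None of 31 genes passed in limma, and no gene of the array did. At an unadjusted p under 0.05, 8 effector genes had a smaller late difference in Atm-/- cells, where 9.29% of all genes did, and 2 had a larger one, where 11.4% did. With marked spots removed before scaling 16 had a smaller one, with the median of all probes moved by -0.33, and with normexp 12 did. The share of all genes was not counted under these settings. The term sets 24 h against the mean of the 3 earlier time points, and its median was -0.15 in the effector genes and -0.05 over all genes.

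The largest negative terms were those of Rsad2 at -1.93 ± 0.25 (SE) and Iigp1 at -1.75 ± 0.19, both with an adjusted p of 0.117. Rsad2 was 9.71-fold higher at 24 h than at 0 h in Atm+/+ cells and 2.60-fold higher in Atm-/- cells, whose peak was at 8 h. Iigp1 was 7.94-fold higher in Atm+/+ and 2.5-fold higher in Atm-/- cells. Oasl1 (-1.21), Ifit3 (-0.87), Dhx58 (-0.77), Cmpk2 (-0.76), Ifit2 (-0.58) and Igtp (-0.51) had the other unadjusted p under 0.05.

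Ifi44 went the other way, at 1.4 ± 0.22 (adjusted p of 0.119). Ifi44 was 1.57-fold higher at 24 h in Atm+/+ and 3.53-fold higher in Atm-/- cells. The other gene counted as larger, Oas1a, rests on Atm-/- readings that were not well above background, and its size is not given. With the trended and robust variance, 4 genes passed as smaller (Rsad2, Iigp1, Dhx58 and Ifit2) and Ifi44 as larger. The Atm+/+ 24 h array, 1 of the 2 arrays this term sets apart, is the one with 1545 marked spots.

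Genes upstream of the effectors were read from lists of the pathway. For these and the later lists, 7.45% of all genes were lower and 7.55% higher in Atm-/- cells at an adjusted p under 0.05 in limma. At 24 h 1.3% of all genes rose, and the 24 h calls of the lists were not repeated with arrays left out. Of 14 ligand genes with a probe, interferons and the interferon-induced cytokine Il15, 11 were not well above background on any array, among them Ifnb1, the interferon that fibroblasts make first, and Ifng. Of the 3 tested, Il15 was lower in Atm-/- cells (-0.42 ± 0.09, adjusted p of 0.0435). No interferon gene passed, and the probes of the pair tested were well above background on few arrays, Ifna1 on 2 and Ifnl3 on 3. None of 9 receptor and kinase genes passed in limma. At an unadjusted p under 0.05 in limma 1 was lower (Jak1, at -0.43), where 15.8% of all genes were. The Jak1 probe was well above background on 4 of the 8 arrays. Ifnar1, a chain of the receptor for type I interferon, was at -0.18 ± 0.10 (adjusted p of 0.293).

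Of 9 interferon regulatory factors (IRFs) and STATs tested, 6 were lower in Atm-/- cells and none higher. Irf7, which drives the interferon genes and is itself induced by interferon, was at 0.04, -0.06, 0.45 and 1.00 in Atm+/+ cells at 0, 4, 8 and 24 h, and at -1.40, -1.44, -0.72 and -0.46 in Atm-/- cells. The groups did not overlap, the difference was -1.36 ± 0.08 (adjusted p of 0.00234), and it was the one factor that rose at 24 h, by 0.95. Irf8 differed by -1.54 ± 0.14, Stat2 by -0.75 ± 0.09, Irf1 by -0.74 ± 0.15 and Irf9 by -0.61 ± 0.13.

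Of 14 sensors and adaptors, 6 were lower in Atm-/- cells, led by Zbp1 (-1.99 ± 0.07), Ifih1 (-1.20 ± 0.06), Tlr3 (-0.90 ± 0.15) and Cgas (-0.82 ± 0.11). Zbp1, Ifih1 and Ikbke rose at 24 h. Of 12 genes of MHC class I presentation, 10 were lower, led by Psmb8 (-1.82 ± 0.08), a subunit of the immunoproteasome, and H2-T23 (-1.56 ± 0.08). Psmb9 and Tapbp rose at 24 h. The Atm+/+ 24 h value of Tapbp was marked and left out, so its 24 h call rests on the Atm-/- 24 h array. Of 8 feedback genes, Ptpn6 and Socs3 were lower. Ccl5 was lower in Atm-/- cells and rose at 24 h, by 1.39, with a larger value of 1.87 at 8 h. Cxcl10 did not pass in either comparison, and its Atm+/+ 24 h value was marked and left out. It was higher than at 0 h by 3.05 at 4 h and by 3.37 at 8 h, which did not pass either.

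Interferon-stimulated genes that are not among the 38 gave 27 lower and none higher of 50 tested, where 7.45% of all genes were lower. Their median was -0.64. Slfn5 (-2.32 ± 0.08), Trim30a (-2.09 ± 0.12), Casp4 (-1.73 ± 0.17) and Gbp7 (-1.72 ± 0.10) led them. At 24 h, 5 of the 50 rose, which were Casp4, Gbp7, Irgm2, Ifitm1 and Sp140. The Atm+/+ 24 h value of Gbp7 was marked and left out, so its 24 h call rests on the Atm-/- 24 h array. The share that passed was thus 27 of 50 here and 29 of 35 in the effector genes, and the difference between these shares was not tested.

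**Figure D5:**
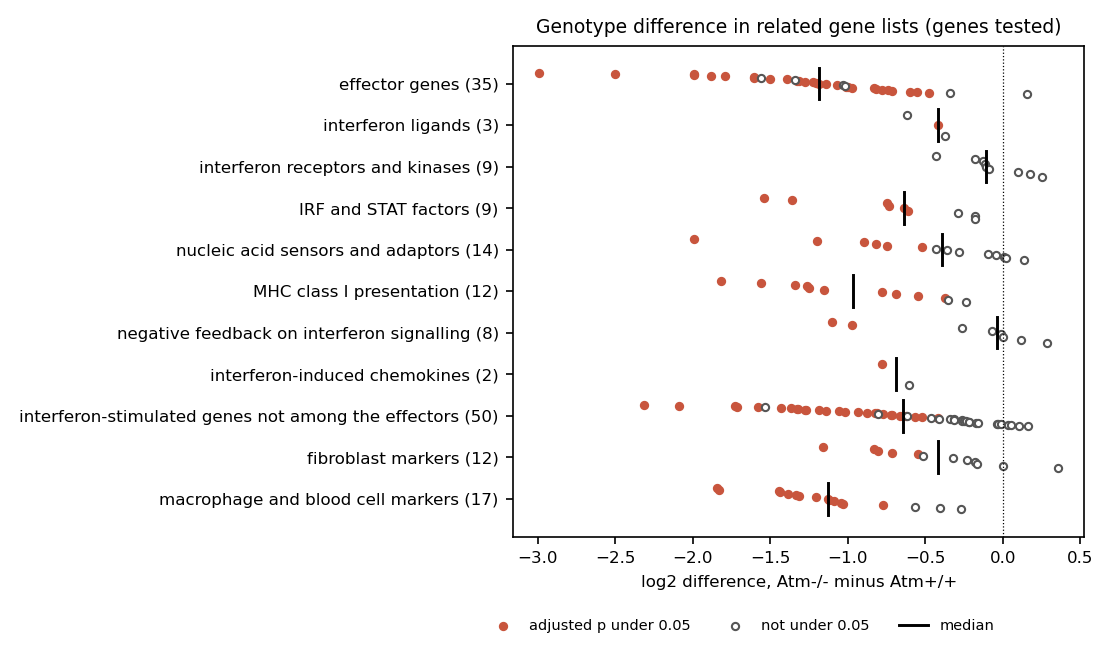
Genotype difference (log2, Atm-/- minus Atm+/+) of each tested gene in the effector set and in 10 related lists, with the number tested in brackets, filled points at an adjusted p under 0.05 and a black bar at the median. Medians are -1.19 in the effector genes, -0.11 in the receptors and kinases, and -1.13 in the macrophage and blood cell markers.

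Markers of blood cells moved with genotype too. Of 17 macrophage and blood cell markers tested, 14 were lower in Atm-/- cells, with a median of -1.13, where 7.45% of all genes were lower. At 24 h 3 of these markers rose (Adgre1, Lyz1 and Lyz2), where 1.3% of all genes did. Their summed level, as a multiple of the array's 75th percentile, was 64.5 to 102 on the Atm+/+ arrays and 33.5 to 41.6 on the Atm-/- arrays. In both genotypes the sum was lowest at 0 h and highest at 24 h. Defining markers such as Csf1r, Itgam and Adgre1 were well above background on all 8 arrays, Ptprc on 1 array, and Cd68 had no probe.

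These values move with the effector genes in both comparisons, and their part in either result was not tested. Of 12 fibroblast markers, 5 were lower in Atm-/- cells and none higher, with a summed level of 827 to 897 on Atm+/+ and 679 to 782 on Atm-/- arrays. Of 9 dendritic and lymphoid markers, 4 were not well above background on any array and 2 of 5 tested were lower. Epithelial markers were higher in Atm-/- cells in 6 of 8 and endothelial markers in 3 of 5, where 7.55% of all genes were higher.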

How the data were processed

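RNA of 8 MEF cultures was measured on one-colour Agilent arrays, with 1 array a group. Per the file headers, the authors' scans were read with Feature Extraction 10.5.1.1, and the deposited processed signal is an intensity with background subtracted and no scaling between arrays. Per the labels' protocols, ribosomal RNA was removed and priming was random along the transcript. The probes follow mm9, and the symbols were taken from RefSeq transcripts (GRCm38.p6). Of 37246 probes 22216 received 1 symbol.

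Control spots were left out, spots of a probe were averaged as log2, and each array's 75th percentile was subtracted from these log2 values, which were computed here from the deposited intensity. Values with every spot marked as an outlier were dropped. The 23297 probes well above background on at least 2 arrays were fitted with limma 3.58.1 in R 4.3.3, with time point and genotype as terms, two-sided, with Benjamini-Hochberg adjustment over all probes and a threshold of 0.05. The fit was tested on simulated data. A fold of 2 was used for single arrays. The number of arrays limits the precision.

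The members and gene lists were chosen with earlier results of these data known, so their counts are descriptions. All 38 members are named, and values on every array are given for those with the largest or smallest differences and for at least 1 of each role. From the other lists up to 4 genes that passed are named, and 1 gene that the rule would name is not reported here. Alternatives covered scaling, background correction, marked spots, filters, probes, variance model and arrays left out. The slide could not be a block, since each genotype has its own. The other deposited tables, of noncoding probes, were not used.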

Additional observations from a re-analysis of the deposited data

How the results depend on the processing

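No paired analysis was possible because the labels carry no replicate numbers. Arrays of the same time point are matched by the time point term of the fit. The count of 29 genes lower in Atm-/- cells was 24 to 32 over the 8 other settings. Leaving out arrays gave 18 to 31, with 18 without the 0 h arrays (or either of them). It was 19 without the 4 h arrays and 20 without the 8 h arrays. The count of 10 genes higher at 24 h was 2 with marked spots removed before scaling, 0 with no filter on dim probes, 16 with the trended and robust variance, and 0 to 1 with arrays left out. At 8 h the count of 1 became 0 with normexp, with marked spots removed before scaling and with no filter, and 2 with probes well above background on all 8 arrays. From 8 h to 24 h that filter gave 1, Oasl2. The difference of the late rise gave 4 lower genes with the trended and robust variance, against 0 otherwise. Marked spots removed before scaling gave 20 genes past 2-fold in Atm+/+ cells at 24 h, against 12, and shifted the median of all probes by 0.19 at 24 h and by -0.33 in the difference of the late rise. The cause of these changes was not tested. Of the values of single genes, those that changed sign were at 24 h. Ifit2, at 0.18, ran from -0.11 (without the Atm+/+ 24 h array) to 0.47 with arrays left out. Oas3, at -0.09, was at 0.0407 with normexp and 0.105 with marked spots removed before scaling, and ran from -0.26 to 0.0751 (without the Atm-/- 0 h array) with arrays left out. Apart from these, 236 of 269 values at 24 h kept their direction and their side of the threshold over the settings other than arrays left out, and 259 of 277 genotype values did. With arrays left out it was 236 of 337 and 324 of 420. The setting that keeps marked values was chosen after seeing the data, as was leaving out Oas1a, and gave 28 genes for genotype and 8 at 24 h. With 1 array per group, the fits leave 3 residual degrees of freedom or fewer.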
